A study of Penicillium oxalicum with 15 samples.

Results

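In the filamentous fungus Penicillium oxalicum, 71 genes differed in opposite directions in a strain overexpressing a mutant form of the transcription factor ClrB, with lower levels than in the reference strain on glucose and higher levels on cellulose. They were chosen from 9976 genes of the deposited table. A gene qualified if it reached 1 FPKM (fragments per kilobase of gene length, scaled to the library's counted fragments) in at least 3 of 15 libraries. Its mean of log2(FPKM + 1) also had to be lower by at least 1 in gClrBID than in M12 on glucose and higher by at least 1 on cellulose. The expression filter left 8765 genes, so the 71 are 0.81% of these, and none of the genes meeting both differences carried a tag in the excluded stretches PDE_00789 to PDE_00811 and PDE_09999 to PDE_10010.

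The libraries came from mycelia of 3 strains, with 3 libraries for each of 5 groups. M12 is the reference strain, gClrBID carries the overexpressed internal mutant of ClrB, and the last strain lacks creA. Every culture grew first for 22 h with 2% glucose and was then moved for 4 h to fresh Vogel's medium whose carbon source was either glucose or cellulose at 2%, shaken at 200 rpm and 30 °C. M12 and gClrBID were measured on both carbon sources and the creA deletion on cellulose. The promoter that drives the mutant clrB, the nature of the internal mutation and the relation of M12 to the other strains are not given in the sources used here. The replicates are labelled biological, but nothing says whether they were separate cultures, so the p-values rest on library-to-library spread alone.

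ClrB is a zinc cluster activator of genes for cellulose-degrading enzymes in Penicillium, and CreA is the repressor that keeps genes for alternative carbon sources low while glucose is present. On cellulose, fungi of this kind relieve that repression and secrete cellulases, whose soluble products feed further induction. Overexpressing an altered activator and deleting the repressor are both known ways to raise cellulase genes in such fungi.

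The altered genes were read first, by tags known from earlier work on the species and not from the deposited table. creA (PDE_03168) stood at 0.105, 0.0542 and 0 FPKM in the deletion libraries and at 407, 423 and 472 FPKM in M12 on cellulose. Its level also differed in gClrBID, without overlap with M12 on either carbon source. On glucose creA stood at 224, 213 and 217 FPKM in gClrBID and at 71.9, 68.7 and 73.3 FPKM in M12. On cellulose it stood at 277, 329 and 311 FPKM in gClrBID. The part of creA level in the differences of the 71 genes was not tested. clrB (PDE_05999) stood at 465, 488 and 456 FPKM in gClrBID on glucose and at 10.4, 9.75 and 10 FPKM in M12. Against its label, gClrBID had less clrB RNA than M12 on cellulose, where its libraries read 56.0, 76.2 and 88.8 FPKM and those of M12 160, 148 and 150 FPKM, without overlap. The higher levels of the 71 genes on cellulose were thus measured in libraries with less clrB RNA than in the reference. Reads of the introduced and the resident clrB cannot be told apart in these values.

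The deposited table pairs no tag with a name, and none of the 71 tags was annotated in the sources used here, so no function is given for them. Their gene lengths, worked back from the steps of the FPKM values, ran from 234 to 4413 nucleotides with a median of 981. The median over all tested genes was 1212. Genes under 600 nucleotides made up 29.6% of the 71 (21 genes) and 18.8% of all tested genes. The libraries held 10129674 to 18361208 counted fragments each.

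The values that chose the genes are given here as a description. On glucose the differences ran from -6.03 to -1.03 with a median of -1.85, where the median of all tested genes was -0.26 (0.00 after median-of-ratios scaling between libraries). On cellulose they ran from 1.01 to 4.35 with a median of 1.81, where the median of all tested genes was -0.02. Of all tested genes 15.3% met the glucose criterion and 4.23% the cellulose criterion. The 3 M12 libraries on glucose lay above all 3 gClrBID libraries in 70 of the 71 genes, an ordering that 57.6% of all tested genes shared. The exception was PDE_06209, at 5.71, 5.14 and 4.29 FPKM in M12 and 4.84, 1.87 and 0.207 FPKM in gClrBID. On cellulose gClrBID lay above M12 without overlap in all 71, and in 30.5% of all tested genes.

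**Figure D1:**
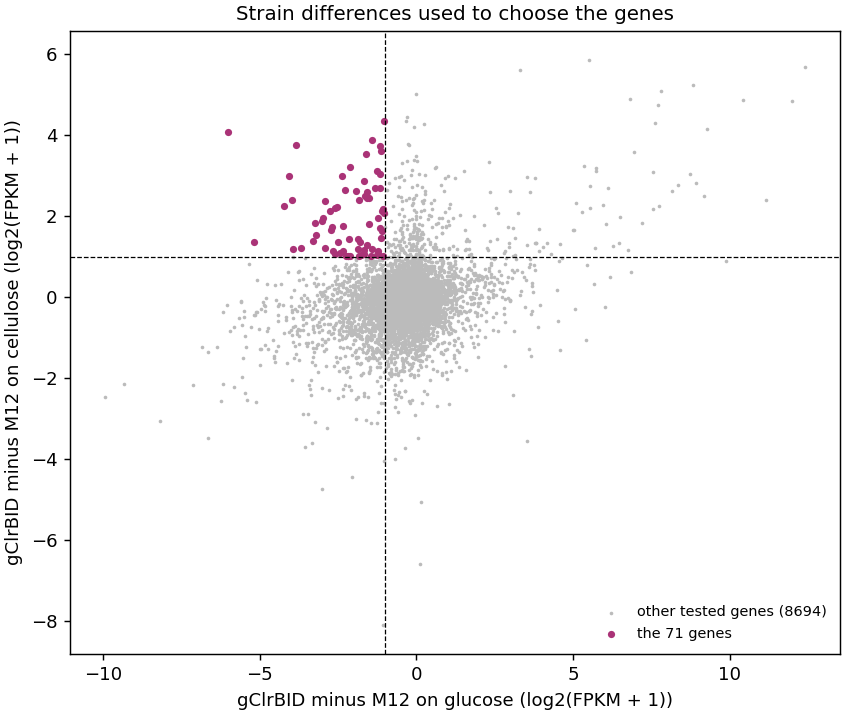
Each point is a tested gene, with the gClrBID minus M12 difference on glucose on the horizontal axis and that on cellulose on the vertical axis, both as differences of group means of log2(FPKM + 1). Dashed lines mark the thresholds of -1 and 1, and the 71 coloured genes fill the upper left corner, out to -6.03 on glucose and 4.35 on cellulose.

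The members closest to the glucose threshold were PDE_06055 (-1.034), PDE_01195 (-1.042) and PDE_06210 (-1.074), and the genes just outside it were PDE_05239 (-0.997), PDE_01220 (-0.970) and PDE_07897 (-0.942). The members closest to the cellulose threshold were PDE_05600 (1.009), PDE_07001 (1.011) and PDE_01409 (1.020), and just outside lay PDE_08920 (0.999), PDE_05240 (0.987) and PDE_06056 (0.979). These values are differences on the log2(FPKM + 1) scale. PDE_05239 and PDE_05240 carry neighbouring tags, and PDE_06056 follows the member PDE_06055, so that several near misses lay beside each other or beside a member.

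The levels of the 71 genes were low in gClrBID on glucose and spread widely elsewhere. The median of their group means was 11.5 FPKM in M12 on glucose and 1.47 FPKM in gClrBID on glucose. On cellulose it was 12.7 FPKM in M12, 56.4 FPKM in gClrBID and 6.90 FPKM in the creA deletion. Over all tested genes the corresponding medians were 28.1, 21.8, 28.9, 28.2 and 24.3 FPKM. In gClrBID on glucose 26 of the 71 had a mean under 1 FPKM, against 13 in the creA deletion on cellulose, 1 in M12 on cellulose and none in M12 on glucose. The rule by itself keeps the means of M12 on glucose at 1 FPKM or more and favours low values in gClrBID there. These counts are thus a description, and the share of all tested genes under 1 FPKM was not counted. In bulk RNA, fewer cells that express a gene and less RNA of it per cell cannot be told apart.

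Together the 71 genes held 0.401 ± 0.0262% of the counted fragments in M12 on glucose and 0.0813 ± 0.00375% in gClrBID on glucose. On cellulose they held 0.745 ± 0.0221% in M12, 2.78 ± 0.272% in gClrBID and 0.349 ± 0.0229% in the creA deletion (SD, n = 3 each). The order of M12 and gClrBID on each carbon source follows from the choice. A few genes weigh most in the share of gClrBID on cellulose. PDE_09947 held 62992 to 72582 fragments per library there, PDE_06706 57271 to 59324 and PDE_09377 54370 to 57077. Group means reached 100 FPKM in 10 genes in M12 and 3 in gClrBID on glucose, and in 13 genes in M12, 27 in gClrBID and 9 in the creA deletion on cellulose.

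The lowest values rested on few fragments. In 17 of the 71 genes at least 1 gClrBID glucose library held 3 fragments or fewer, and in 5 genes at least 1 held none. In M12 on glucose, 70 of the 71 had at least 10 fragments in every library. PDE_07205 was counted with 1, 4 and 4 fragments in gClrBID on glucose and with 135, 177 and 146 in M12. Among these low counts the gClrBID libraries did not always fall together. PDE_06209 had 24, 7 and 1 fragments and PDE_04655 had 16, 6 and 3 in replicates 1, 2 and 3. Counts carry no molecular identifiers, so their spread covers more than counting error.

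**Figure D2:**
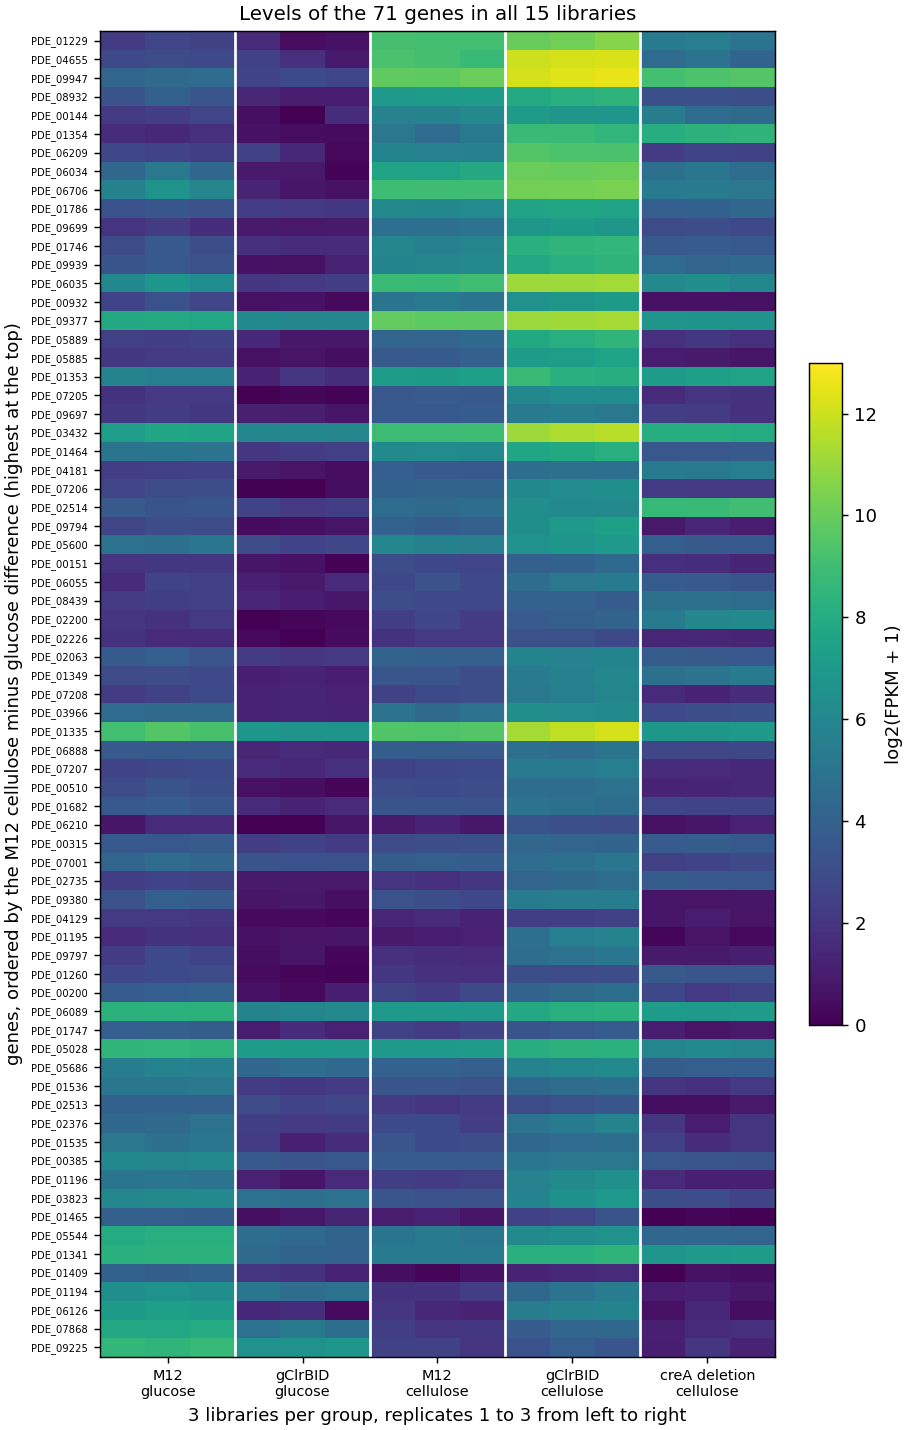
Rows are the 71 genes, ordered by their cellulose minus glucose difference in M12, columns are the 15 libraries in 5 groups, and colour gives log2(FPKM + 1). The second group from the left, gClrBID on glucose, is the darkest for most rows, and gClrBID on cellulose is the brightest for 52 of the 71 rows by group mean.

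The 10 genes with the highest mean over all libraries are described by their values in each library. PDE_09947, the highest, stood at 18.1, 21.9 and 22.2 FPKM in M12 on glucose and at 5.39, 6.69 and 5.62 FPKM in gClrBID on glucose. On cellulose it stood at 905, 877 and 1052 FPKM in M12, at 4662, 5258 and 6083 FPKM in gClrBID and at 547, 667 and 727 FPKM in the creA deletion. The 5 groups did not overlap, and gClrBID was at the bottom on glucose and at the top on cellulose.

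PDE_04655, of 255 nucleotides, had the same order in the 4 M12 and gClrBID groups. It stood at 6.25, 6.79 and 6.21 FPKM in M12 on glucose and at 4.67, 2.32 and 0.899 FPKM in gClrBID on glucose. On cellulose it stood at 605, 575 and 444 FPKM in M12 and at 4133, 4567 and 4722 FPKM in gClrBID. In the creA deletion it stood at 22.7, 30.4 and 17.5 FPKM, below every M12 library on cellulose.

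PDE_01335 was already abundant in M12 on glucose, at 533, 722 and 600 FPKM, and stood at 113, 103 and 97.1 FPKM in gClrBID. On cellulose its levels were 715, 689 and 730 FPKM in M12, 2434, 3430 and 4552 FPKM in gClrBID, and 117, 116 and 129 FPKM in the creA deletion. M12 held nearly the same level on both carbon sources, while the gClrBID libraries on cellulose differed among themselves more than those of any other group. PDE_03432 stood at 154, 199 and 194 FPKM in M12 and 64.0, 63.7 and 58.7 FPKM in gClrBID on glucose. On cellulose it stood at 473, 485 and 500 FPKM in M12, 2219, 2707 and 3072 FPKM in gClrBID, and 272, 274 and 251 FPKM in the creA deletion. Here the creA deletion lay between M12 on glucose and M12 on cellulose, without overlap with either.

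PDE_09377 stood at 230, 244 and 214 FPKM in M12 and 70.2, 62.4 and 63.9 FPKM in gClrBID on glucose. On cellulose it stood at 945, 832 and 863 FPKM in M12, 2097, 2241 and 2450 FPKM in gClrBID, and 107, 106 and 98.6 FPKM in the creA deletion. Every deletion library thus lay below every M12 library on glucose. PDE_05028 had its highest libraries in M12 on glucose, at 360, 376 and 355 FPKM, against 139, 136 and 127 FPKM in gClrBID. Its levels on cellulose were 131, 127 and 140 FPKM in M12, 272, 324 and 319 FPKM in gClrBID, and 61.9, 71.1 and 60.4 FPKM in the creA deletion. Among the 10 genes it alone was lower on cellulose than on glucose in M12.

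PDE_06034 and PDE_06035 carry consecutive tags and moved alike. PDE_06035 stood at 86.8 ± 24.6 FPKM (SD, n = 3) in M12 and 3.23, 3.43 and 4.25 FPKM in gClrBID on glucose. Its levels on cellulose were 468, 439 and 512 FPKM in M12, 2181, 2207 and 2362 FPKM in gClrBID, and 68.9, 83.5 and 61.6 FPKM in the creA deletion. PDE_06034 was lower throughout, at 18.5, 35.7 and 19.7 FPKM in M12 and 0.828, 0.877 and 0.0849 FPKM in gClrBID on glucose, and reached 1061, 1018 and 1090 FPKM in gClrBID on cellulose. In both genes replicate 2 of M12 on glucose stood above the other 2 libraries of its group.

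PDE_06706 had the largest glucose difference of the 10 genes, -5.18. It stood at 51.8, 98.3 and 59.2 FPKM in M12 and 1.56, 0.731 and 0.495 FPKM in gClrBID on glucose. On cellulose it stood at 492, 493 and 494 FPKM in M12, 1199, 1259 and 1348 FPKM in gClrBID, and 40.8, 40.7 and 35.1 FPKM in the creA deletion. PDE_01229, of 276 nucleotides, stood at 3.92, 5.66 and 5.02 FPKM in M12 and 1.89, 0.358 and 0.554 FPKM in gClrBID on glucose, the latter from 7, 1 and 2 fragments. It rose to 579, 543 and 531 FPKM in M12 on cellulose and stood at 992, 1196 and 1590 FPKM in gClrBID there.

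**Figure D3:**
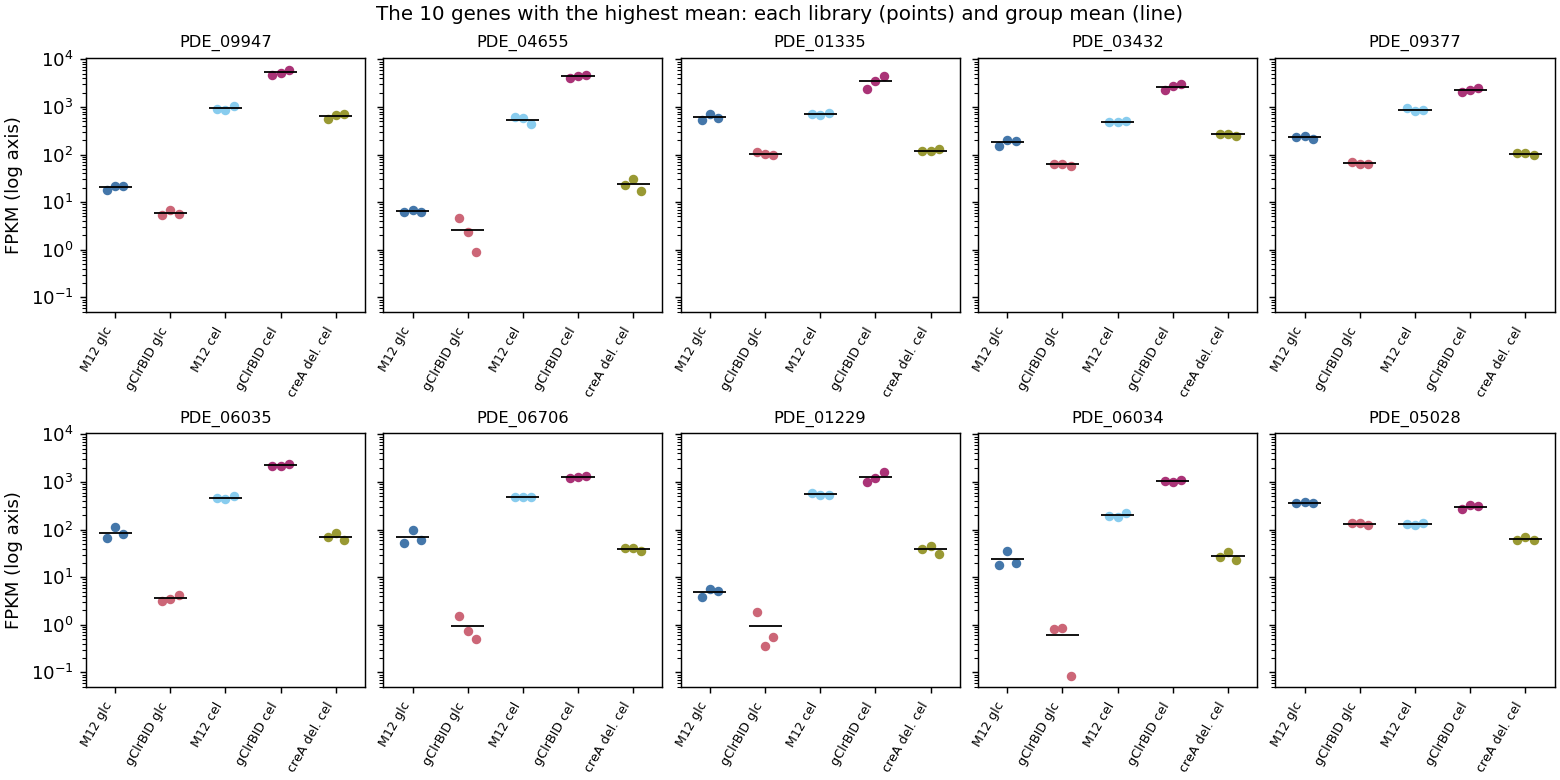
Each panel is 1 of the 10 genes with the highest mean, with FPKM on a log axis, the 3 libraries of each group as points and the group mean as a line. gClrBID on cellulose is the highest group in 9 panels, and PDE_05028 is highest in M12 on glucose.

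The creA deletion entered the choice of the 71 genes in no way except the expression filter, whereas the M12 cellulose libraries it is compared with were used by the choice. The part of these shared libraries in the differences was not tested. Of the 71 genes, 53 fell and 11 rose in the creA deletion against M12 on cellulose (limma, adjusted p under 0.05 over all tested genes), and 7 were not called. Over all tested genes 54.2% were called lower and 21.2% higher, against 74.6% and 15.5% of the 71. The median log2 fold change was -1.03 over the 71 and -0.28 over all tested genes. At a minimum of 2-fold, 39 of the 71 fell, with 14.1% of all tested genes, and 9 rose, with 5.42%.

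Most tested genes shifted downward in this comparison, so it was also read after median-of-ratios scaling. That brought all tested genes to 35.1% lower and 36.7% higher, with a median of 0.00. Of the 71 genes 48 were then called lower and 13 higher, with a median of -0.82.

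On the log2(FPKM + 1) scale the strongest falls in the creA deletion were those of PDE_04655 and PDE_00932. PDE_04655 fell by 4.49 ± 0.27 on the log2 scale (SE, adjusted p = 4.9e-10), from the library values given above. PDE_00932 stood at 30.6, 37.6 and 31.4 FPKM in M12 on cellulose and at 0.546, 0.565 and 0.488 FPKM in the deletion, a fall by 4.47 ± 0.16 (adjusted p = 9.2e-13). In gClrBID on cellulose it stood at 94.8, 117 and 133 FPKM. The low level of PDE_00932 without creA lay beside that of gClrBID on glucose, at 0.524, 0.568 and 0.245 FPKM.

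PDE_08932 stood at 127, 139 and 142 FPKM in M12 on cellulose and at 8.05, 8.15 and 7.63 FPKM in the deletion, a fall by 3.94 ± 0.16 (adjusted p = 3.6e-12). PDE_01229 stood at 38.6, 46.0 and 31.4 FPKM in the deletion and fell by 3.81 ± 0.23 (adjusted p = 4.0e-10). PDE_06706 fell by 3.63 ± 0.19 (adjusted p = 9.5e-11). These 5 genes have the lowest values of the 71 on the log2(FPKM + 1) scale, and all 5 rose on cellulose in M12. The offset of 1 favours genes of high level in M12 on cellulose in that ranking. By the ratio of group means, deletion over M12, PDE_01465 (0.0433) fell as far as PDE_04655 (0.0434). It also fell further than PDE_01229 (0.0702) and PDE_06706 (0.0789), and it was lower on cellulose than on glucose in M12. In the deletion PDE_00932, PDE_08932 and PDE_06706 stood below every M12 glucose library. The other genes of high level fell as well, with log2 fold changes of -3.07 ± 0.07 in PDE_09377, -2.84 ± 0.22 in PDE_06034, -2.72 ± 0.15 in PDE_06035 and -2.55 ± 0.16 in PDE_01335, all with adjusted p of 1.1e-08 or less. PDE_05028 and PDE_03432 had -1.03 ± 0.07 and -0.87 ± 0.10 and also fell. PDE_09947 fell by 0.55 ± 0.12 (adjusted p = 5.3e-04), and was no longer called once scaled by median of ratios (-0.23, adjusted p = 0.097).

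A smaller set moved the other way. PDE_02514 stood at 22.9, 21.6 and 24.0 FPKM in M12 on cellulose, at 83.4, 69.9 and 68.5 FPKM in gClrBID and at 412, 439 and 521 FPKM in the creA deletion, a rise by 4.26 ± 0.11 without creA (adjusted p = 3.1e-14). PDE_01354 rose by 3.34 ± 0.15 (adjusted p = 1.1e-11), from 34.0, 22.7 and 36.9 FPKM to 277, 329 and 351 FPKM. In gClrBID it stood at 448, 445 and 375 FPKM, above every deletion library. PDE_02200 rose by 3.33 ± 0.20 (adjusted p = 3.0e-10), from 4.30, 5.74 and 3.94 FPKM to 38.3, 63.5 and 70.4 FPKM. The deletion thus brought these genes above M12 in every library.

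PDE_08439 rose by 1.79 ± 0.13 (adjusted p = 5.7e-09) and PDE_02735 by 1.70 ± 0.11 (adjusted p = 1.2e-09). PDE_08439 reached 27.2, 26.6 and 23.3 FPKM in the deletion from 7.53, 6.28 and 6.37 FPKM in M12. The other 6 genes called higher were PDE_00315, PDE_01260, PDE_01341, PDE_01349, PDE_04181 and PDE_06055, by 0.61 to 1.70. The 7 genes not called were PDE_00200, PDE_01353, PDE_01409, PDE_03823, PDE_05686, PDE_06089 and PDE_06210, with differences from -0.38 to 0.16.

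**Figure D4:**
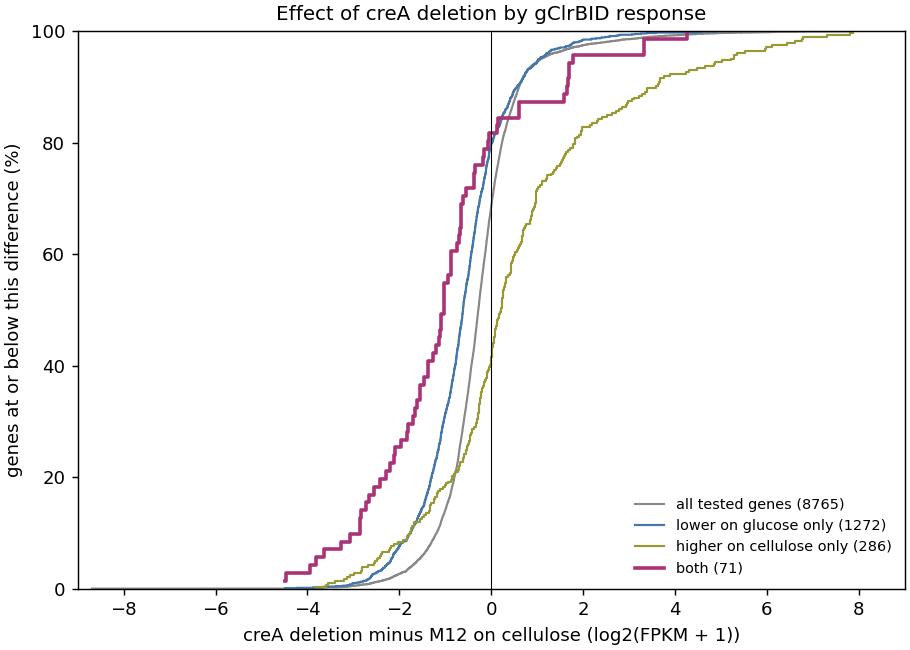
Cumulative share of genes (vertical axis, %) at or below each creA deletion minus M12 difference on cellulose (horizontal axis, log2(FPKM + 1)), for all tested genes, genes meeting a single criterion, and the 71 genes meeting both. The line of the 71 lies furthest left between -4 and 0, with a median of -1.03 against -0.28 for all tested genes, and lies right of those of all tested genes and of genes lower on glucose only from 1 upward, out to PDE_02514 at 4.26.

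The genes that met a single criterion were set beside them. The 1272 genes lower on glucose but not raised on cellulose in gClrBID had a median of -0.61 in the creA deletion, with 66.4% called lower and 14.6% higher. The 286 genes raised on cellulose but not lowered on glucose had a median of 0.21, with 30.4% lower and 46.2% higher. The 71 genes, at -1.03, lay on the side of the former. All 3 sets share the M12 cellulose libraries with the comparison, and no test of the difference between sets was made.

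The creA deletion and gClrBID were also compared directly on cellulose. The gClrBID libraries used here took part in the choice, which favours high values in them, so the counts are a description of levels. Of the 71, 66 had higher and 5 lower calls in gClrBID, where 50.3% and 19.8% of all tested genes did. At a minimum of 2-fold these were 61 and 2, where 10.5% and 5.92% of all tested genes were called. Median-of-ratios scaling left 65 and 5, while all tested genes went to 31.4% higher and 35.9% lower and their median from 0.21 to -0.03. The 5 lower ones, highest in the deletion among all 5 groups, were PDE_01260, PDE_02200, PDE_02514, PDE_04181 and PDE_08439.

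The order of the 5 groups was read for each gene. gClrBID on cellulose had the highest mean in 52 genes, M12 on glucose in 14 and the creA deletion in 5, where these groups were highest in 14.8%, 33.6% and 10.1% of all tested genes. In 49 genes each gClrBID cellulose library lay above all 12 other libraries, which held for 8.04% of all tested genes. gClrBID on glucose had the lowest mean in 53 genes and the creA deletion on cellulose in 18, where these 2 groups were lowest in 36.7% and 30.1% of all tested genes. gClrBID on glucose lay below the creA deletion without overlap in 46 genes and above it in 11, where 41.1% and 43.9% of all tested genes did. The choice favours low values in gClrBID on glucose, so these 2 counts are a description of levels. The rule alone keeps gClrBID on glucose and M12 on cellulose from being highest, as they were in 14.6% and 26.9% of all tested genes. It also keeps gClrBID on cellulose and M12 on glucose from being lowest, as they were in 7.03% and 11.2%. The counts of highest and lowest groups thus follow in part from the choice.

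The level in gClrBID on cellulose could lie on either side of M12 on glucose, since the rule sets no order between them. Both groups took part in the choice, which favours high values in each, so the counts are a description of levels. gClrBID on cellulose lay above M12 on glucose without overlap in 54 genes and below it without overlap in 14, leaving 3 that overlapped. Over all tested genes these shares were 39.3% and 45.4%. PDE_01341 was among the 3 that overlapped, at 307, 321 and 326 FPKM in M12 on glucose and 308, 307 and 352 FPKM in gClrBID on cellulose. The other groups were lower, with 21.9, 17.4 and 15.9 FPKM in gClrBID on glucose, 40.8, 40.8 and 37.5 FPKM in M12 on cellulose and 113, 130 and 141 FPKM in the creA deletion.

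In M12 the 71 genes did not share a carbon response. On cellulose against glucose 36 rose, 29 fell and 6 were not called, or 50.7% and 40.8%, where 41.3% and 42.8% of all tested genes were called higher and lower. The median log2 fold change was 0.27, and -0.02 over all tested genes. Both groups of this comparison took part in the choice, each against gClrBID, but the choice sets no direction between them. At a minimum of 2-fold, 27 rose and 20 fell, where 22% and 18.9% of all tested genes did.

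The strongest rises on cellulose in M12 were those of PDE_01229 by 6.57 ± 0.23 (adjusted p = 1.4e-13), PDE_04655 by 6.18 ± 0.27 (adjusted p = 2.8e-12) and PDE_09947 by 5.44 ± 0.12 (adjusted p = 3.8e-16). The first 2 are among the shortest of the 71 genes, and all 3 stood at 22.2 FPKM or less in every M12 glucose library. Of the other genes of high level, PDE_06034 rose there by 3.03 ± 0.22, PDE_06706 by 2.86 ± 0.19, PDE_06035 by 2.47 ± 0.15, PDE_09377 by 1.94 ± 0.07 and PDE_03432 by 1.42 ± 0.10. PDE_01335 was not called, with 0.21 ± 0.16 (adjusted p = 0.22). PDE_05028 fell by 1.45 ± 0.07 (adjusted p = 1.2e-11).

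The strongest falls were those of PDE_09225, PDE_07868 and PDE_06126. PDE_09225, of 234 nucleotides, stood at 386, 357 and 411 FPKM in M12 on glucose and at 4.71, 4.93 and 2.95 FPKM on cellulose, a fall by 6.23 ± 0.21 (adjusted p = 1.0e-13). PDE_07868 stood at 232, 224 and 258 FPKM and at 4.37, 2.91 and 3.27 FPKM, a fall by 5.74 ± 0.18 (adjusted p = 4.5e-14). PDE_06126 stood at 136, 165 and 141 FPKM and at 3.09, 1.82 and 1.44 FPKM, a fall by 5.60 ± 0.31 (adjusted p = 4.0e-11). All 3 stood at 4.93 FPKM or less in every M12 cellulose library.

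PDE_06126 also had the largest glucose difference of the 71. In gClrBID it stood at 1.71, 2.27 and 0.293 FPKM on glucose and at 43.4, 52.1 and 57.7 FPKM on cellulose, the reverse of its order in M12. PDE_09225 and PDE_07868 kept the order of M12 in gClrBID, at 99.6, 102 and 113 FPKM on glucose and 8.68, 13.7 and 10.1 FPKM on cellulose for PDE_09225. For PDE_07868 the gClrBID values were 27.6, 36.8 and 24.9 FPKM and 12.8, 17.9 and 19.6 FPKM. In PDE_09225 and PDE_07868 the fall on cellulose was smaller in gClrBID than in M12 but was not turned. The rule places the gClrBID difference at least 2 log2 units above that of M12. For falls as large as these it leaves only a smaller fall or a turn.

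Within gClrBID, 67 of the 71 genes were called higher on cellulose than on glucose and 2 lower, where 49.4% and 34.3% of all tested genes were. The rule places this difference at least 2 log2 units above that of M12, so the count follows largely from the choice. Scaling by median of ratios moved the median of all tested genes here from 0.21 to 0.03 and left 66 of the 71 higher and 2 lower. The 2 lower genes were PDE_09225, by a log2 fold change of -3.18 ± 0.21, and PDE_07868, by -0.79 ± 0.18. The 2 not called were PDE_01194 (0.08 ± 0.20) and PDE_01409 (-0.28 ± 0.21). On the log2(FPKM + 1) scale the largest rise was that of PDE_04655, by 10.40 ± 0.27, from 3 to 16 fragments per library on glucose. By the ratio of group means, PDE_06034 (1771) stood slightly above PDE_04655 (1700).

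Tags of the 71 genes were examined for neighbours, since consecutive tags usually follow each other along an assembly. The deposited table gives no coordinates, so positions are stated as tag numbers only. Of the 71 genes 27 fell into 12 runs in which each tag lay within 3 of the next, and 21 had another of the 71 at the directly preceding or following tag (29.6%). Among the 286 genes that met only the cellulose criterion the latter share was 30.1%, and among the 1272 that met only the glucose criterion it was 41.0%. These sets are larger, which by itself raises the share. There were 10 runs of 2, 1 of 3 and 1 of 4.

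The longest run was PDE_07205 to PDE_07208. In gClrBID on cellulose PDE_07205 stood at 66.6, 77.9 and 81.1 FPKM, PDE_07206 at 65.6, 77.2 and 87.4, PDE_07207 at 38.2, 40.9 and 45.7, and PDE_07208 at 35.5, 47.3 and 59.8 FPKM. M12 on cellulose ranged from 10.6 to 12.1, 15.2 to 17.2, 4.63 to 6.19 and 4.96 to 7.51 FPKM in the same order of tags. In the creA deletion all 4 fell, with log2 fold changes of -1.82 ± 0.12, -1.96 ± 0.14, -1.15 ± 0.12 and -1.38 ± 0.19. The next tag, PDE_07209, had gClrBID differences of -0.27 on glucose and 0.11 on cellulose and a creA deletion difference of 0.04. PDE_07204 on the other side had -0.84, 0.51 and -0.90.

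In M12 the 4 genes of that run were not uniform. PDE_07205 and PDE_07206 rose on cellulose by 1.55 ± 0.12 and 1.17 ± 0.14, while PDE_07207 (-0.09 ± 0.12) and PDE_07208 (0.27 ± 0.19) were not called. On glucose the former pair was almost undetected in gClrBID, at 0.0263 to 0.139 FPKM and 0 to 0.409 FPKM. The latter pair kept 1.75 to 2.61 FPKM and 1.27 to 1.53 FPKM.

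The run PDE_01194 to PDE_01196 held the largest cellulose difference of the 71, that of PDE_01195. PDE_01195 stood at 0.888, 1.02 and 1.25 FPKM in M12 on cellulose and at 25.8, 48.0 and 54.7 FPKM in gClrBID. PDE_01196 stood at 32.0, 33.7 and 29.5 FPKM in M12 on glucose, 1.32, 0.725 and 1.88 FPKM in gClrBID on glucose, 4.34, 3.98 and 4.58 FPKM in M12 on cellulose, and 52.6, 74.2 and 90.1 FPKM in gClrBID on cellulose. PDE_01194 stood at 88.8, 99.5 and 85.4 FPKM in M12 on glucose and at 20.2, 30.1 and 43.0 FPKM in gClrBID on cellulose. All 3 genes fell in the creA deletion, with log2 fold changes of -1.08 ± 0.20, -0.66 ± 0.21 and -1.11 ± 0.19, though PDE_01195 was not called when fitted by voom on whole fragments (-2.01, adjusted p = 0.085). Of the 4 flanking tags, 3 lay on the cellulose side too, with gClrBID differences of 2.96 in PDE_01192, 1.66 in PDE_01193 and 1.56 in PDE_01198. The fourth, PDE_01197 directly beside the run, was not tested, with group means of 0.0504 FPKM or less. Their glucose differences, -0.57, -0.54 and -0.21, did not reach the threshold.

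**Figure D5:**
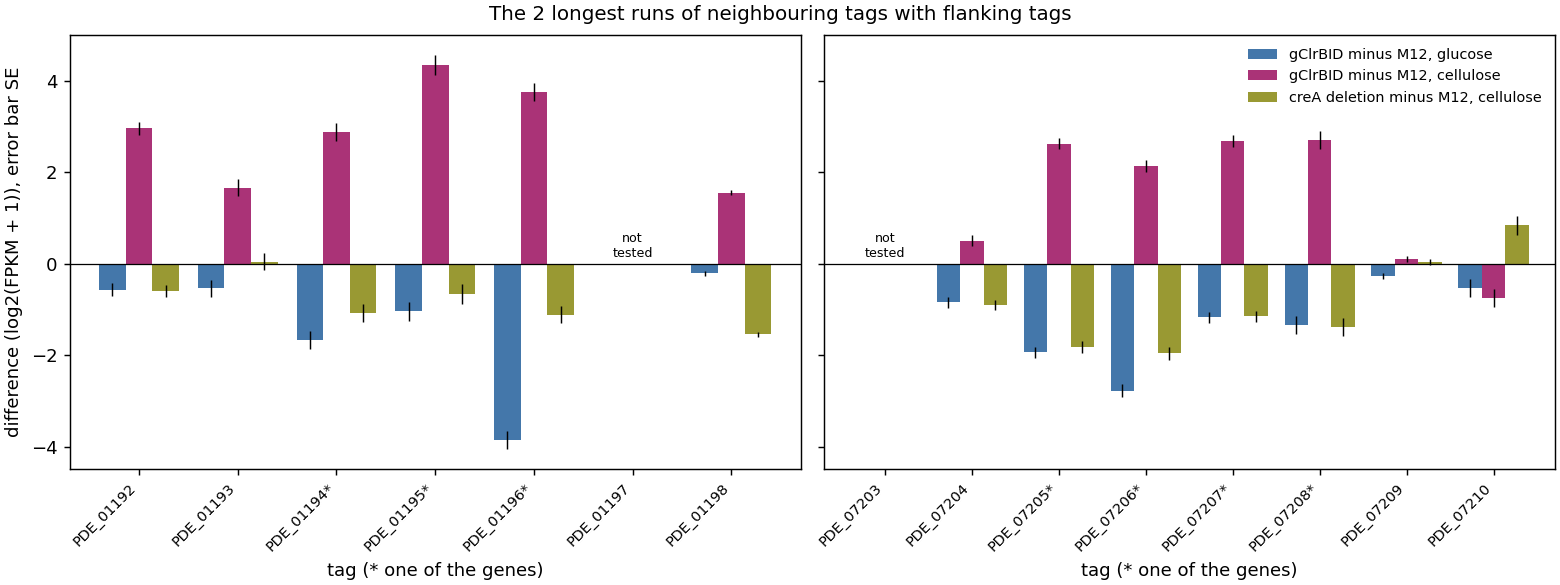
Bars give 3 differences on the log2(FPKM + 1) scale with SE for each tag of the 2 longest runs and their flanking tags, namely gClrBID minus M12 on glucose and on cellulose and creA deletion minus M12 on cellulose. In PDE_07205 to PDE_07208 the cellulose bars stand at 2.14 to 2.70 and drop to 0.11 at PDE_07209, while beside PDE_01194 to PDE_01196 3 of the 4 flanking tags have cellulose differences of 1.56 to 2.96 and PDE_01197 was not tested.

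The runs of 2 differed in how alike their genes were. PDE_01535 and PDE_01536 matched closely, with group means of 31.8 and 34.1 FPKM in M12 on glucose, 2.46 and 3.63 in gClrBID on glucose, 7.87 and 9.23 in M12 on cellulose, 22.2 and 23.0 in gClrBID on cellulose, and 3.25 and 2.96 in the creA deletion. PDE_02513 and PDE_02514 diverged in the creA deletion, where PDE_02513 fell by 1.54 ± 0.14 to 0.412, 0.426 and 0.874 FPKM, while its neighbour rose by 4.26. PDE_01353 and PDE_01354 also differed there, with 0.13 ± 0.17 (adjusted p = 0.53) for PDE_01353, which scaling by median of ratios moved to a higher call at 0.45 (adjusted p = 0.038), and the rise of PDE_01354 given above. PDE_01464 and PDE_01465 both fell in the deletion (-2.67 ± 0.11 and -0.95 ± 0.21) but moved oppositely on cellulose in M12, by 1.26 ± 0.11 and -2.91 ± 0.21. The fall of PDE_01465 in the deletion rests on few fragments, 7, 10 and 6 in M12 on cellulose and 0, 1 and 0 in the deletion.

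In PDE_01746 and PDE_01747 both were lower in the creA deletion, with -2.20 ± 0.13 and -1.61 ± 0.16, and the carbon response in M12 differed in sign, with 2.59 ± 0.13 and -1.41 ± 0.16. PDE_09697 and PDE_09699, 2 tags apart, fell in the deletion (-1.46 ± 0.14 and -1.83 ± 0.13), and PDE_09698 between them stood at 1.71 FPKM or less in each gClrBID and M12 group mean. PDE_09794 and PDE_09797 fell (-2.85 ± 0.19 and -0.69 ± 0.16), and the 2 tags between them, PDE_09795 and PDE_09796, met the cellulose criterion only (1.70 and 1.11). PDE_09377 and PDE_09380 fell (-3.07 ± 0.07 and -2.30 ± 0.15), and the tags between them, PDE_09378 and PDE_09379, had gClrBID differences of -0.56 and -0.43 on cellulose. PDE_06209 fell by 3.28 ± 0.35 in the deletion, and PDE_06210 was not called (-0.18 ± 0.25, adjusted p = 0.52) at levels of 1.48 FPKM or less in both groups.

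Known genes of carbon metabolism were set beside the 71 through 16 tags named in earlier work on the species: regulators, cellulose-degrading and amylolytic enzymes, beta-glucosidases, a xylanase and a cellodextrin transporter. None of the 16 met both criteria. The glucose criterion was met by amyR (PDE_03964), for the activator of amylase genes, and by PDE_02736, placed among the beta-glucosidases. The cellulose criterion was met by 8 of the 16. amyR stood at 16.9, 17.9 and 16.3 FPKM in M12 and 0.768, 0.965 and 0.913 FPKM in gClrBID on glucose, and its cellulose difference of 0.34 kept it out. PDE_02736 missed with 0.74.

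Of the 71 genes 3 had a tag within 3 of these 16. PDE_03966, at 2 tags from amyR, stood at 22.7, 21.3 and 21.4 FPKM in M12 and 1.44, 1.57 and 1.40 FPKM in gClrBID on glucose. Its levels on cellulose were 30.4, 21.2 and 27.9 FPKM in M12, 83.6, 75.9 and 73.0 FPKM in gClrBID, and 6.21, 7.78 and 8.03 FPKM in the creA deletion. PDE_02735 precedes PDE_02736 and, at 4413 nucleotides, is the longest of the 71. It stood at 2.90 ± 0.322 FPKM in M12 and 20.4 ± 2.78 FPKM in gClrBID on cellulose (SD, n = 3 each). PDE_09225 precedes cel5B (PDE_09226), an endoglucanase gene, and their orders differed. cel5B stood at 1.33 ± 0.575 FPKM (SD, n = 3) in M12 and at 8754, 9224 and 9717 FPKM in gClrBID on glucose, where PDE_09225 had its highest levels in M12. How reads of overlapping or antisense neighbours were assigned is not given in the sources used here.

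The spread between replicates was uneven in the 71 genes. In gClrBID on cellulose, replicate 3 was the highest of its group in 53 genes and replicate 1 the lowest in 51. The median deviation of the 71 from their group means was -0.18 in replicate 1, 0.01 in replicate 2 and 0.17 in replicate 3 (log2), while that of all tested genes lay between 0.00 and 0.01. clrB, in the same 3 libraries, stood at 56.0, 76.2 and 88.8 FPKM. The part of clrB level or of any culture difference in this spread was not tested. Without replicate 3 of this group the rule found 64 genes, 63 of them among the 71, and without replicate 1 it found 73, 67 of them shared. In M12 on glucose replicate 2 was the highest in 37 genes. The median SD of log2(FPKM + 1) within a group was 0.127 to 0.198 over the 71 and 0.0738 to 0.0956 over all tested genes.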

How the data were processed

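The authors deposited 1 table of FPKM values, for 9976 genes in 15 libraries, each column carrying a sample title. Per the labels' protocols the libraries were made with a stranded mRNA kit. Tools named in the submitters' processing notes, which state neither role nor order, are HISAT2 2.0.0, DESeq2, CASAVA 1.8 and featureCounts 1.5.0-p1. The genome build, annotation and strand setting are not given in the sources used here.

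Log2(FPKM + 1) values were fitted with limma 3.58.1 in R 4.3.3, with 1 mean per group over all 15 libraries, an intensity trend and Benjamini-Hochberg adjustment over 8765 genes with at least 1 FPKM in at least 3 libraries. Called means an adjusted p under 0.05. The offset of 1 shrinks the fold changes of low genes. The fit of the creA deletion comparison was tested on simulated data that held no shift over all genes. That run thus does not cover the downward shift of most tested genes in this comparison. Fragments and lengths were worked back from the FPKM steps. Each of the 9789 genes above 0 gave whole fragments within a tolerance of 6e-05 FPKM. After a common factor of 3 was removed, lengths are multiples of 3 by construction. The counting error of a gene depends on its own fragments in each library, not on the library total alone.

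The members, the 16 named tags and the lists were chosen with earlier results of these data known. The rule contrasts were part of the same fit, but no test of them or of their interaction is reported, since they chose the members. Genes described by value are the 10 highest by mean, the members in tag runs, the 5 highest and 5 lowest in the creA deletion, the 3 highest and 3 lowest in the M12 carbon response and those next to the thresholds. Other genes given with values, such as PDE_01341, were chosen after their values were seen. Alternatives were a pseudocount of 0.1, no filter, median-of-ratios scaling, a replicate block, voom weights on the fragments, and leaving out each library.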

Additional observations from a re-analysis of the deposited data

How the results depend on the processing

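The number of genes found by the rule rose from 71 to 131 with a pseudocount of 0.1 and to 143 with voom weights on the fragments, with all 71 included in both cases; both use a smaller offset, which by construction widens the differences of genes near 0. It was 61 after median-of-ratios scaling, 56 of them shared. Leaving out 1 library gave 64 to 74. The counts of the 71 genes called in the 4 tested comparisons stayed within 1.5 times under every alternative run. With 1 library left out, 51 to 54 were lower and 10 to 12 higher in the creA deletion, 32 to 36 were higher and 28 to 30 lower on cellulose in M12, 66 to 67 were higher and 2 to 3 lower on cellulose in gClrBID, and, for gClrBID against the creA deletion, 65 to 66 were higher and 5 lower. Of 52 single differences 49 kept direction and side of the threshold throughout, and the exceptions are PDE_09947, PDE_01195 and PDE_01353, given above. Deviations of same-numbered libraries from different groups correlated at -0.0968 to 0.0879 (median -0.00737). Those of different-numbered libraries correlated at -0.0927 to 0.116 (median 0.000613). The replicate numbers thus showed no pairing in these values, but whether same-numbered libraries were handled together cannot be read from them. With the replicate number as a block, 53 were lower and 11 higher in the creA deletion, 34 higher and 29 lower on cellulose in M12, and the other counts were as without it. Few fragments in gClrBID on glucose limit the precision of the differences there. The same holds on cellulose in M12 and the creA deletion for genes such as PDE_01465, PDE_01409 and PDE_06126.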
